A study of Mus musculus with 30 samples.

Results

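Genes of the tricarboxylic acid (TCA) cycle and of the use of pyruvate and glutamine were followed across 10 groups of mouse helper T cells. They number 30 of the 23420 gene symbols in the deposited tables. They were chosen by symbol, as the enzyme subunits of the cycle and its entry and exit reactions together with a glutamine importer and the citrate carrier, a rule that uses no measured value. All 30 passed the filter on low counts that left 12611 genes for testing. C57BL/6 mice with 2 reporters, Foxp3-GFP and IL-10-Thy1.1, gave the naive CD4 T cells. These were stimulated for 72 hours with 2.5 ug/ml soluble anti-CD3 and irradiated splenocytes lacking CD4 T cells, in 5 cultures that differed in the added cytokines, and GFP negative T cells were then sorted by the reporter. The groups were the IL-10 positive and the IL-10 negative cells of each culture, with 3 libraries in each: Th1 (IL-12, 20 ng/ml), Th2 (IL-4, 20 ng/ml), pathogenic Th17, written pTh17 (IL-1 beta at 20, IL-6 at 25 and IL-23 at 20 ng/ml), non-pathogenic Th17, written Th17 (TGF-beta 1 at 2 and IL-6 at 25 ng/ml), and Tr1 (IL-27, 25 ng/ml), a regulatory type. Both compartments of all cultures carried both reporters, and the sort removed cells with an active Foxp3-GFP reporter. Each library was made from 2000 lysed cells with a variant of SMART-Seq2, which reads polyadenylated RNA. Whether each replicate is its own culture or animal is not stated in the labels, and the p-values therefore speak of library to library spread, part or all of which may be technical.

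The TCA cycle runs in mitochondria, where acetyl-CoA made from pyruvate joins oxaloacetate to form citrate, and each turn reduces carriers that feed the respiratory chain. Carbon also enters as oxaloacetate through pyruvate carboxylase and as 2-oxoglutarate from glutamine by way of glutamate, and it leaves as citrate for lipid synthesis or as aspartate for nucleotide synthesis. Activated T cells are known to raise glucose and glutamine uptake and to use the cycle both for energy and as a source of building blocks.

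Total expected counts ran from 4394704 to 11850597 per library, and the members held 0.309% to 0.511% of them in the means of the 10 groups. Values per library are given as CPM, counts relative to the TMM-scaled library total, and levels are compared between genes only in TPM, which also correct for transcript length. Il10 transcripts followed the compartment labels within each culture, with a higher mean in positive than in negative cells of every culture. Group means were 23.5 to 815 CPM in the 5 IL-10 positive groups and 0.474 to 66.2 CPM in the 5 IL-10 negative groups. The 66.2 CPM belonged to Th2 IL-10 negative cells. It lay above the means of IL-10 positive cells of Th17 (23.5 CPM), Tr1 (47.4 CPM) and pTh17 (51.6 CPM). Il17a, the cytokine that gives Th17 cells their name, averaged 8.77 to 139.5 CPM in the 4 groups of the pTh17 and Th17 cultures and at most 0.0473 CPM in the other groups. Gata3 was highest in the Th2 groups (1049 and 1011 CPM in positive and negative cells) and Tbx21 in the Th1 groups (265 and 181 CPM). Cd3d, Cd4 and the other listed T cell markers, 8 in all, summed to between 4296 and 6433 CPM in the group means. In Tr1 IL-10 positive replicate 18, 32.8% of counts lay in 10 genes, against 24.9% and 24.6% in the other replicates of that group. Without it the Tr1 comparison still called 11 members higher and 4 lower. In such bulk libraries, fewer cells that carry a transcript and less transcript per cell cannot be told apart.

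Levels spanned a wide range. The most abundant members by mean TPM over 30 libraries were Mdh2, the mitochondrial malate dehydrogenase, at 430 TPM, Sdhb, the iron-sulfur subunit of succinate dehydrogenase, at 355 TPM, and Idh3b, a subunit of the NAD-dependent isocitrate dehydrogenase, at 248 TPM. Single libraries ran from 323 to 576 TPM for Mdh2, from 239.5 to 474 TPM for Sdhb and from 200.45 to 292 TPM for Idh3b. The least abundant were Pcx (pyruvate carboxylase) at 8.63 TPM, Idh1 (the cytosolic NADP-dependent isocitrate dehydrogenase) at 15.02 TPM and Dlat (the acetyl-transferring subunit of pyruvate dehydrogenase) at 19.5 TPM. Pcx ran from 0.28 TPM to 23.1 TPM in single libraries, Idh1 from 3.02 to 32.8 TPM and Dlat from 13.7 to 27.5 TPM. The scarce Pcx and Idh1 also varied most between groups: the highest group mean of Pcx, 22.5 ± 0.589 TPM (SD, n = 3) in pTh17 IL-10 negative cells, stood 35.7-fold above the lowest, 0.63 ± 0.409 TPM in Tr1 IL-10 positive cells, and the spread of Idh1 was 8.34-fold. For Slc25a1, the mitochondrial citrate carrier, it was 6.11-fold and for Got1, the cytosolic aspartate aminotransferase, 5.06-fold, while for Idh3b it was 1.30-fold.

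**Figure D1:**
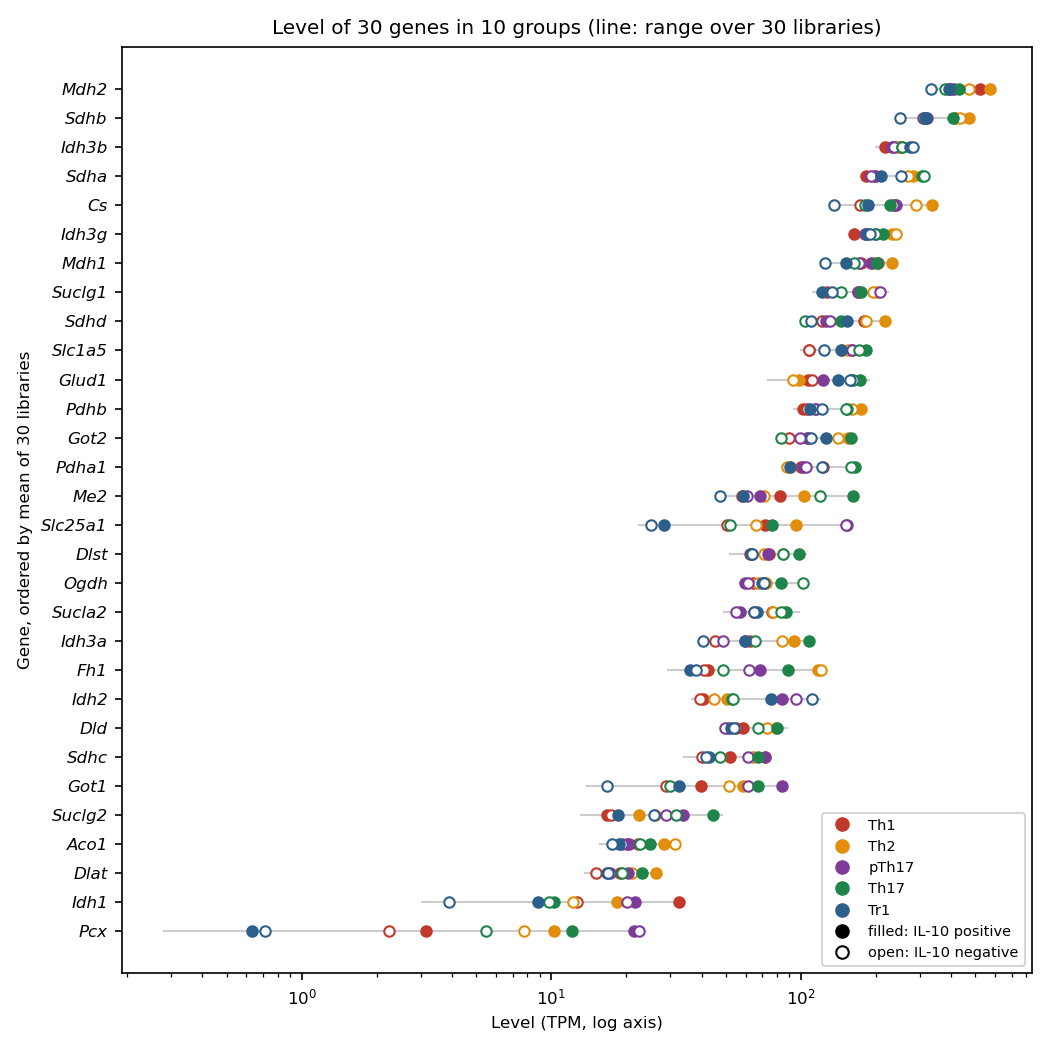
Level of the 30 genes in TPM (log axis), ordered by the mean of 30 libraries, with a point for the mean of each of the 10 groups (filled for IL-10 positive, open for IL-10 negative cells) and a line for the range over libraries. Mdh2 and Sdhb stood at the top, and Pcx and Idh1 at the bottom with the widest spread, from Tr1 groups at the low end to pTh17 groups (Pcx) or Th1 IL-10 positive cells (Idh1) at the high end.

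Every member differed among the 5 cultures, both among IL-10 positive and among IL-10 negative groups (30 of 30 called in each by edgeR's quasi-likelihood test with a Benjamini-Hochberg adjusted p below 0.05). Such differences were the rule for all tested genes, of which 92.2% and 88.2% were called, so these counts say little about the members. Summed over the members, the group mean was highest in Th2 cells, at 4459 ± 65.2 TPM in IL-10 positive and 4045 ± 12.1 TPM in IL-10 negative cells (SD, n = 3), and Th17 IL-10 positive cells stood between them at 4275 ± 85.2 TPM. Tr1 cells lay at the low end, with 3250 ± 146 TPM in IL-10 positive and 3082 ± 74.1 TPM in IL-10 negative cells. The sum was larger in positive than in negative cells in Th2, in Th1 (3533 ± 81.0 and 3125 ± 73.0 TPM) and in Th17 (4275 ± 85.2 and 3623 ± 77.3 TPM). In pTh17 the values of 3627 ± 103 and 3595 ± 31.8 TPM lay within the spread of their libraries. In Tr1 the libraries of the compartments overlapped.

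IL-10 positive cells carried more transcript than IL-10 negative cells for most of these enzymes in Th17 and Th1 cultures, for fewer of them in Tr1 and Th2 cultures, and for 1 in pTh17 cultures. In Th17, 24 of 30 members were higher and 1 lower in IL-10 positive cells (edgeR, adjusted p below 0.05), where 29.2% of all tested genes were higher and 28.9% lower. On log2(TPM + 1) with limma, the median of all genes was itself -0.13 in Th17. The count was there 19 higher and 1 lower, with 2987 and 4499 of all 12611 genes. The calls of Pdha1, Aco1, Idh3b, Sucla2 and Slc1a5 were lost. In Th1 the counts were 17 higher and 3 lower, with 23.5% and 20.4% of all genes. Th2 gave 10 higher and 0 lower, against 12.3% and 9.49% of all genes, and 6 higher without Th2 IL-10 negative replicate 8. Tr1 gave 11 higher and 4 lower, against 20.5% and 14.2%. The pTh17 comparison gave 1 higher and 4 lower, against 10.1% and 8.33% of all genes, and so few calls say little about the members. On log2(TPM + 1) with limma the pTh17 counts were 2 and 2, with 1624 and 670 of all genes. After median-of-ratios scaling they were 2 and 4, with 1354 and 971 of all genes. The median log2 fold change of the members, positive over negative, was 0.40 in Th17, 0.26 in Th1, 0.14 in Th2, 0.09 in Tr1 and -0.03 in pTh17, while the median of all tested genes stayed between -0.04 and 0.05. Positive and negative libraries did not overlap at all for 21 members in Th1, 20 in Th2, 25 in Th17, 10 in pTh17 and 17 in Tr1, where this held for 51.4%, 38.7%, 62.4%, 32.7% and 41.3% of all tested genes. In pTh17 the share of members was thus near that of all genes.

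**Figure D2:**
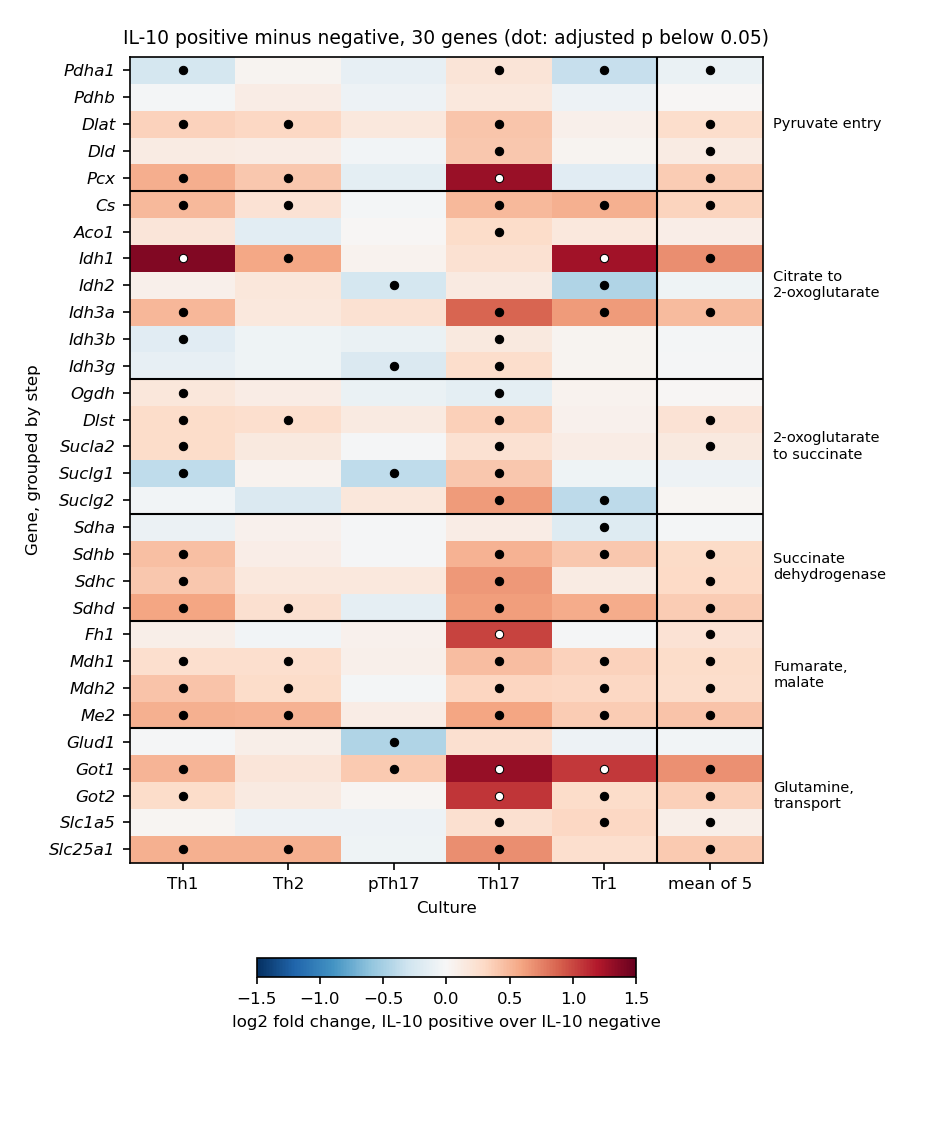
Log2 fold change of IL-10 positive over IL-10 negative cells for the 30 genes (rows, grouped by step of the pathway) in each culture and for the mean of 5 cultures (columns), from the count fit. Dots mark calls at an adjusted p below 0.05, of which Th17 has 24 higher and 1 lower and pTh17 has 1 higher and 4 lower.

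For the mean of the 5 differences, 19 members were higher and only Pdha1 was lower in IL-10 positive cells (edgeR), where 29.6% and 28.2% of all genes were called. On log2(TPM + 1) with limma the split was 18 higher and 6 lower, with 3630 and 3876 of all 12611 genes. The difference itself varied between cultures for 26 of 30 members by the test of equality of the 5 differences (edgeR), where 60.7% of all genes were called. With limma on log2(TPM + 1) it was called for 19 of 30 members and 7918 of 12611 genes, so the members' share was there close to that of all genes. The 4 not called by edgeR were Pdhb, Dlat, Dlst and Sucla2. No member was higher in all 5 cultures. The 6 members higher in 4 cultures were Cs, Sdhd, Mdh1, Mdh2 and Me2 in each culture but pTh17, and Got1 in each culture but Th2. The share of all tested genes higher in 4 or 5 cultures was not computed. These counts therefore do not set the members apart from other genes. Some of these calls rested on single libraries, since Sdhd in Th2 was not called when positive replicate 7, negative replicate 7 or negative replicate 8 was left out (edgeR, adjusted p = 0.0819 to 0.0950). The same held for Mdh1 without Th2 IL-10 negative replicate 8 (edgeR, adjusted p = 0.0868) and without Th1 IL-10 negative replicate 5 (edgeR, adjusted p = 0.0525). Pdhb, the beta subunit of the first pyruvate dehydrogenase enzyme, was called in no culture, although leaving out negative replicate 10 or positive replicate 12 of Th17 made it higher there (edgeR, adjusted p = 0.0153 and 0.0190).

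The bases upstream of the RefSeq starts of these members are shown because Cs, Sdhd, Mdh1, Mdh2 and Got1 were each higher in IL-10 positive cells of 4 cultures. They are the 250 bases before the RefSeq start, 5′ to 3′ on the strand of the gene, from RefSeq on GRCm38.p6, whose primary chromosomes are those of mm10. For Mdh1, Mdh2 and Got1 the bases just after that start were found in a GENCODE transcript of the gene, and for Cs and Sdhd they were not. Capitals mark matches on either strand to CCAAT (the CCAAT box), CCGGAAG (an ETS-type motif), TGACGTCA (the cyclic AMP response element, CRE), TTGCATCA (letters of composite ATF4 and C/EBP elements) and CACGTG (the E-box). No 2 of these matches overlapped in the windows shown.
Cs, chr10:128337477-128337726, plus strand: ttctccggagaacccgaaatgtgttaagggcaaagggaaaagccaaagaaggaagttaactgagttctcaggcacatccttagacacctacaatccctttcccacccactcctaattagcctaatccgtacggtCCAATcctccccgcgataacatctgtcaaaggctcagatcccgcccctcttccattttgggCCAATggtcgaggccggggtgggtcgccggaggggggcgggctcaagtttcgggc
Sdhd, chr9:50603850-50604099, minus strand: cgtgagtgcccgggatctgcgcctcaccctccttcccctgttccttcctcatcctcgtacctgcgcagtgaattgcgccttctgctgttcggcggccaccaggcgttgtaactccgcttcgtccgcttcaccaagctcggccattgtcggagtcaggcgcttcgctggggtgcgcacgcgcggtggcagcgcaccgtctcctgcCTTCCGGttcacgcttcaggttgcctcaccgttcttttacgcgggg
Mdh1, chr11:21571935-21572184, minus strand: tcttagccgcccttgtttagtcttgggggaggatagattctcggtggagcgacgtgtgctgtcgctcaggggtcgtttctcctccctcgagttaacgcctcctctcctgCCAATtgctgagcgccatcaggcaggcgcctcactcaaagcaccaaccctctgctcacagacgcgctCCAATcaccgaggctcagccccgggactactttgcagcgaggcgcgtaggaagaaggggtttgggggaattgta
Mdh2, chr5:135778399-135778648, plus strand: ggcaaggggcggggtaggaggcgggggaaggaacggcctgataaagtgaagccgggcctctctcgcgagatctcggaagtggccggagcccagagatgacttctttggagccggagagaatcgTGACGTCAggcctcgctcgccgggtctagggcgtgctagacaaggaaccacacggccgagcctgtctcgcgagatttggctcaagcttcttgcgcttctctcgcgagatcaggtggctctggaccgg
Got1, chr19:43524606-43524855, minus strand: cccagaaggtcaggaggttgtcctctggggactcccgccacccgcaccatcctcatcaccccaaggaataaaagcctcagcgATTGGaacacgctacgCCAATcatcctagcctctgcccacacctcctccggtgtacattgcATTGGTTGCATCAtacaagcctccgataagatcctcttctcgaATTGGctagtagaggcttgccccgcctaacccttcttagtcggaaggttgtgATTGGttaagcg

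Got1 had 5 CCAAT matches and 1 TTGCATCA, which directly follows one of them. Mdh2 had 1 CRE match. Cs and Mdh1 had 2 CCAAT matches each and Sdhd had 1 ETS-type match. Of the 30 members, 26 had such a window, all but Idh3a, Slc1a5, Me2 and Sdhc. CCAAT occurred in 15 of these 26 (57.7%), against 37.5% of 27025 genes with a window of the same length, and the GC-box GGGCGG, left in lower case here, in 17 (65.4%), against 35.4% of genes. TTGCATCA occurred in 1 member (3.85%), against 0.918% of genes, and TGACGTCA in 2 (7.69%), Ogdh and Mdh2, against 1.77%. The E-box was in 3 (11.5%; 6.86% of genes) and the ETS-type motif in 3 (11.5%; 7.83% of genes). Also searched on both strands were AAGATGGC (YY1-type), found in Idh3g (3.85%; 1.83% of genes), and TCACCCCAC (SREBP-type), found in 0 members (0.555% of genes). These matches describe letters, not bound sites.

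Among the genes that bring pyruvate into the cycle, Pcx had the largest fold change in Th17 and the subunits of pyruvate dehydrogenase moved apart. Pcx makes oxaloacetate from pyruvate. In Th17 it stood at 26.0, 26.7 and 21.2 CPM in IL-10 positive libraries, against 9.01, 11.3 and 9.75 CPM in IL-10 negative ones, so all positive libraries lay above all negative ones. The log2 fold change was 1.30 ± 0.15 (SE; edgeR, adjusted p = 1.6e-09). In Th2 Pcx stood at 26.1, 24.0 and 24.4 CPM in positive and 19.2, 18.4 and 18.6 CPM in negative libraries, again without overlap (0.40 ± 0.13; edgeR, adjusted p = 0.019), but leaving out positive replicate 7 or negative replicate 8 of Th2 ended the call (adjusted p = 0.078 and 0.0586 by edgeR). In Th1 it stood at 6.33, 7.81 and 9.65 CPM in positive and 6.23, 6.28 and 4.12 CPM in negative libraries, with the lowest positive value just above the highest negative one. There the log2 fold change of 0.55 ± 0.20 (edgeR, adjusted p = 0.024) fell to 0.35 without Th1 IL-10 negative replicate 6 and was not called (adjusted p = 0.211 by edgeR). It was also not called when positive replicate 6 was left out (edgeR, adjusted p = 0.109), and both the Th1 and the Th2 call were lost on log2(TPM + 1) (limma, adjusted p = 0.0845 and 0.145). The Th1 call was further lost in a fit of 6 libraries and after thinning to 1 depth (edgeR, adjusted p = 0.0851 and 0.291). Pcx was not called in pTh17, with 49.0 ± 1.11 CPM in positive and 54.2 ± 2.98 CPM in negative cells, or in Tr1, with 1.41 ± 0.865 CPM in positive and 1.55 ± 0.689 CPM in negative cells (SD, n = 3). Averaged over cultures Pcx was higher by 0.39 ± 0.11 (edgeR, adjusted p = 0.0025), or 0.28 without Tr1 IL-10 positive replicate 16 (edgeR, adjusted p = 0.0603).

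Pdha1, the alpha subunit of pyruvate dehydrogenase that carries its regulatory phosphorylation sites, was lower in Tr1 (-0.34 ± 0.06) and Th1 (-0.27 ± 0.06) and higher in Th17 (0.19 ± 0.06) (edgeR, adjusted p = 5.2e-05, 0.00048 and 0.0073). The Th17 value was 0.04 on log2(TPM + 1) and was not called (limma, adjusted p = 0.531). Dlat rose in Th17 (0.42 ± 0.10), Th1 (0.35 ± 0.10) and Th2. In Th2 libraries Dlat read 64.3, 59.4 and 60.8 CPM in positive and 48.8, 46.0 and 53.4 CPM in negative cells, which did not overlap (0.31 ± 0.09; edgeR, adjusted p = 0.0077), although the call ended without Th2 IL-10 negative replicate 8 (edgeR, adjusted p = 0.0593). Dld, the third enzyme of the complex, shared with 2-oxoglutarate dehydrogenase, was called in Th17 (0.40 ± 0.09) and in no other culture.

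From citrate to 2-oxoglutarate, Cs and the catalytic subunit Idh3a rose in several cultures, while Idh3b and Idh3g of the same NAD-dependent enzyme differed by less or in the other direction. Cs, citrate synthase, forms citrate. In Tr1 it stood at 278, 298 and 279.6 CPM in IL-10 positive libraries, against 205, 182 and 206 CPM in IL-10 negative libraries, with no overlap (0.53 ± 0.06; edgeR, adjusted p = 5.1e-09). It was also higher in Th1 (0.49 ± 0.06), Th17 (0.49 ± 0.06) and Th2 (0.21 ± 0.06), and in pTh17 the difference was -0.03 ± 0.06. Idh3a read 125, 124 and 124 CPM in Th17 IL-10 positive libraries, against 64.5, 74.5 and 65.4 CPM in IL-10 negative ones (0.87 ± 0.08; edgeR, adjusted p = 1.6e-11). In Tr1 it read 77.8, 82.7 and 72.5 CPM in positive and 51.2, 47.5 and 51.1 CPM in negative libraries (0.64 ± 0.09; edgeR, adjusted p = 8.8e-07). In neither culture did the Idh3a values of the compartments overlap. In pTh17 its difference of 0.23 ± 0.09 was not called (edgeR, adjusted p = 0.058), but it was by DESeq2 (adjusted p = 0.0249) and limma on log2(TPM + 1) (adjusted p = 0.0107). Idh3b and Idh3g, the regulatory subunits of the same enzyme, gave 0.04 ± 0.06 each in Tr1 and rose by 0.15 ± 0.06 and 0.26 ± 0.06 in Th17, where Idh3b was not called when replicate 10 or 12 of either compartment was left out (edgeR, adjusted p = 0.0605 to 0.214). In Th1 Idh3b was lower (-0.17 ± 0.06; edgeR, adjusted p = 0.021), but not when positive replicate 4 or 6 or negative replicate 6 of Th1 was left out (adjusted p = 0.073 to 0.119 by edgeR).

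Idh1, which makes NADPH and 2-oxoglutarate in the cytosol, had the largest difference of all members in Th1 and in Tr1. Its Th1 libraries held 44.7, 43.2 and 43.7 CPM in IL-10 positive cells, against 18.1, 14.2 and 18.04 CPM in IL-10 negative cells. Those values did not overlap, and the log2 fold change was 1.39 ± 0.15 (edgeR, adjusted p = 8.4e-10). Tr1 libraries held less of it, at 10.6, 10.2 and 11.3 CPM in positive and 3.45, 5.68 and 4.27 CPM in negative cells, with a similar fold change of 1.26 ± 0.24 (edgeR, adjusted p = 5.9e-05). In Th2 the values were 24.8, 22.8 and 22.9 CPM in positive and 15.9, 15.7 and 15.5 CPM in negative cells (0.58 ± 0.14; edgeR, adjusted p = 0.0025), and in Th17 and pTh17 the differences of 0.22 ± 0.18 and 0.05 ± 0.15 were not called. Idh2, the mitochondrial enzyme of the same reaction, was not called higher in any culture. It was lower in Tr1 (-0.45 ± 0.09; edgeR, adjusted p = 0.00013) and in pTh17, where libraries held 71.4, 76.5 and 77.5 CPM in positive and 81.3, 88.9 and 100.1 CPM in negative cells. That pTh17 difference (-0.26 ± 0.09; edgeR, adjusted p = 0.025) was not called when positive replicate 13 or negative replicate 15 of pTh17 was left out (edgeR, adjusted p = 0.116 and 0.215) or on log2(TPM + 1) (limma, adjusted p = 0.127). Idh3g read 125, 119 and 128 CPM in pTh17 IL-10 positive and 145, 140.4 and 146 CPM in IL-10 negative libraries (-0.21 ± 0.06; edgeR, adjusted p = 0.0083), without overlap, and leaving out positive replicate 14 ended the call (adjusted p = 0.0522 by edgeR). Aco1, the cytosolic aconitase that also acts as an iron sensor, was called in Th17 (0.28 ± 0.10; edgeR, adjusted p = 0.016), but not on log2(TPM + 1) (0.12; limma, adjusted p = 0.293) or when negative replicate 11 or positive replicate 12 of Th17 was left out (edgeR, adjusted p = 0.0689 and 0.0568). In Th1 it was called by DESeq2 (0.24; adjusted p = 0.0394) and with size factors by median of ratios (edgeR, adjusted p = 0.0433).

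The balance between paired enzymes, as a ratio of TPM within each library, differed with these changes. The Idh1 to Idh2 ratio was 0.806 ± 0.0454 in Th1 IL-10 positive and 0.322 ± 0.0216 in Th1 IL-10 negative cells, and 0.116 ± 0.00957 and 0.0355 ± 0.0106 in Tr1 positive and negative cells (SD, n = 3). The Th1 groups had the higher ratio in both compartments. The Idh3a to Idh3b ratio was 0.425 ± 0.0141 in Th17 positive and 0.258 ± 0.0125 in Th17 negative cells, and 0.218 ± 0.00589 and 0.145 ± 0.00612 in Tr1 positive and negative cells. These ratios were computed after the gene values were seen, and no test was made on them.

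**Figure D3:**
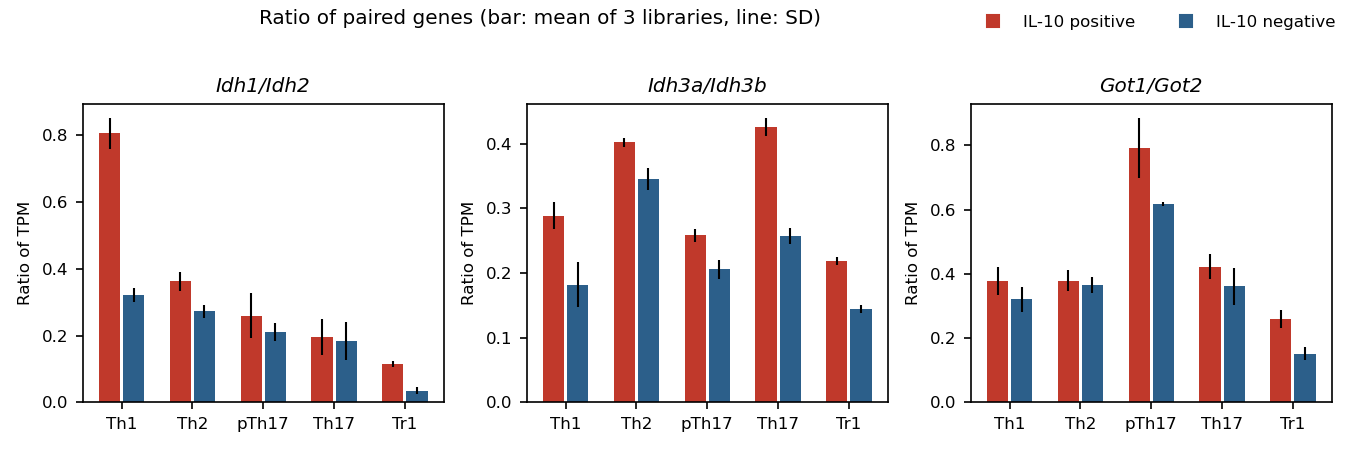
Ratio of TPM within a library for Idh1 to Idh2, Idh3a to Idh3b and Got1 to Got2 in each culture (bars, mean of 3 libraries; lines, SD), IL-10 positive left of IL-10 negative cells. Idh1 to Idh2 reached 0.806 in Th1 positive cells and 0.0355 in Tr1 negative cells.

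Between 2-oxoglutarate and succinate the members split by culture. Dlst, the succinyl-transferring subunit of 2-oxoglutarate dehydrogenase, was higher in Th17 (0.36 ± 0.07), Th1 (0.28 ± 0.07) and Th2 (0.25 ± 0.07). Ogdh, the first enzyme of that complex, was higher in Th1 (0.17 ± 0.06; edgeR, adjusted p = 0.0097) and the one member lower in Th17 (-0.15 ± 0.05; edgeR, adjusted p = 0.018). Leaving out positive replicate 5 ended its Th1 call (adjusted p = 0.0658 by edgeR), and leaving out replicate 10 of either compartment or negative replicate 12 ended its Th17 call (adjusted p = 0.0634 to 0.0816 by edgeR). Suclg1 encodes the alpha subunit shared by both succinyl-CoA ligases. It was lower in Th1 (-0.39 ± 0.08) and higher in Th17 (0.40 ± 0.08), and in pTh17 it stood at 119, 119 and 127 CPM in IL-10 positive and 173, 149 and 153 CPM in IL-10 negative libraries. These did not overlap (-0.38 ± 0.08; edgeR, adjusted p = 0.0002). Suclg2, the GTP-forming beta subunit, was higher in Th17 (0.64 ± 0.11) and lower in Tr1 (-0.39 ± 0.13; edgeR, adjusted p = 0.017), and the Tr1 difference was not called when positive replicate 16 or negative replicate 17 of Tr1 was left out (edgeR, adjusted p = 0.0829 and 0.0785). Sucla2, the ATP-forming counterpart, was higher in Th1 and Th17 (0.27 ± 0.10 and 0.22 ± 0.09; edgeR, adjusted p = 0.019 and 0.04). The Th1 call ended without replicate 5 of either compartment (edgeR, adjusted p = 0.112 and 0.148), and the Th17 call without replicate 12 of either compartment, positive replicate 10 or negative replicate 11 (edgeR, adjusted p = 0.068 to 0.215).

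Of succinate dehydrogenase, which is also complex II of the respiratory chain, the iron-sulfur and membrane subunits rose in Th1 and Th17 and the flavoprotein subunit Sdha was not called higher in the edgeR fit of all 30 libraries with TMM scaling. Sdhd, a membrane anchor, had 132, 131 and 131 CPM in the IL-10 positive libraries of Th1, against 93.4, 82.8 and 85.9 CPM in the IL-10 negative ones (0.59 ± 0.08; edgeR, adjusted p = 1e-07). In Tr1 it stood at 104, 107 and 92.4 CPM in positive and 62.9, 69.1 and 73.4 CPM in negative libraries (0.56 ± 0.09; edgeR, adjusted p = 2.1e-06). Neither pair of groups overlapped. Sdhb rose in Th17 (0.52 ± 0.07), Th1 (0.45 ± 0.07) and Tr1 (0.40 ± 0.08), and Sdhc, the other anchor, in Th17 (0.65 ± 0.11) and Th1 (0.41 ± 0.11). Sdha gave -0.09 ± 0.05 in Th1 and 0.12 ± 0.05 in Th17, neither called, and was lower in Tr1 (-0.20 ± 0.05; edgeR, adjusted p = 0.0044). Leaving out negative replicate 10 of Th17 made it higher there (adjusted p = 0.0363 by edgeR), as did DESeq2 (adjusted p = 0.0185), size factors by median of ratios and a fit of 6 libraries (edgeR, adjusted p = 0.0464 and 0.0321).

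Among the enzymes of fumarate and malate, Mdh1, Mdh2 and Me2 rose in 4 cultures and Fh1 in 1. Fh1, fumarase, read 68.6, 69.6 and 64.5 CPM in Th17 IL-10 positive libraries and 39.5, 28.4 and 33.0 CPM in Th17 IL-10 negative ones, without overlap (1.01 ± 0.11; edgeR, adjusted p = 6.3e-10). In the other 4 cultures its difference lay between -0.04 and 0.09 and was not called. Me2, the mitochondrial malic enzyme that makes pyruvate from malate, read 122, 126 and 116 CPM in the IL-10 positive libraries of Th1 and 89.4, 77.6 and 84.9 CPM in negative ones (0.53 ± 0.07; edgeR, adjusted p = 4.8e-08). In Th2 it read 139, 151 and 141 CPM in positive and 98.8, 98.4 and 102 CPM in negative libraries (0.53 ± 0.07; edgeR, adjusted p = 4.9e-08). No positive library overlapped a negative one for Me2 in either culture. Mdh1, the cytosolic malate dehydrogenase, differed by 0.25 to 0.46 and Mdh2 by 0.27 to 0.43 in the 4 cultures where they were called.

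In glutamine and amino group use, the aspartate aminotransferases Got1 and Got2 were higher in 4 and 3 cultures, and neither was called in Th2. Got1, the cytosolic form, was the only member called higher in pTh17 in the edgeR fit of all 30 libraries at full depth with TMM scaling, at 96.1, 96.6 and 85.1 CPM in IL-10 positive and 71.5, 69.9 and 70.9 CPM in IL-10 negative libraries (0.39 ± 0.09; edgeR, adjusted p = 0.0008). In Th17 it read 59.8, 71.0 and 65.5 CPM in positive and 23.9, 28.4 and 26.6 CPM in negative libraries (1.31 ± 0.10; edgeR, adjusted p = 9.2e-15). In Tr1 it read 34.0, 35.3 and 37.9 CPM in positive and 18.1, 18.4 and 15.4 CPM in negative libraries (1.06 ± 0.12; edgeR, adjusted p = 1.8e-09). The compartments did not overlap in any of these cultures. Got2, the mitochondrial form, read 181, 178 and 175 CPM in Th17 IL-10 positive libraries, against 91.7, 79.1 and 82.5 CPM in negative ones, again apart (1.08 ± 0.07; edgeR, adjusted p = 6.9e-17), and rose by 0.28 ± 0.07 in Th1 and 0.27 ± 0.07 in Tr1, where it was not called with no filter on low counts (0.18; edgeR, adjusted p = 0.129). Glud1, glutamate dehydrogenase, which makes 2-oxoglutarate from glutamate, moved the other way in pTh17. It read 216, 204 and 214 CPM in pTh17 IL-10 positive and 315, 278 and 271 CPM in IL-10 negative libraries, without overlap (-0.45 ± 0.11; edgeR, adjusted p = 0.0023). That difference was not called on log2(TPM + 1) (-0.37; limma, adjusted p = 0.057). Slc1a5, a glutamine importer of the cell membrane, rose in Tr1 (0.31 ± 0.06) and Th17 (0.24 ± 0.06).

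Slc25a1 exports citrate from mitochondria. Its values were 70.9, 65.2 and 74.3 CPM in the IL-10 positive libraries of Th1, against 47.9, 46.7 and 50.4 CPM in IL-10 negative ones (0.53 ± 0.09; edgeR, adjusted p = 8e-06). In Th2 it stood at 100.6, 85.9 and 81.0 CPM in positive and 63.7, 56.7 and 64.8 CPM in negative libraries (0.53 ± 0.08; edgeR, adjusted p = 4.8e-06). Neither pair overlapped. Slc25a1 also rose in Th17 (0.70 ± 0.09) and gave -0.06 ± 0.08 in pTh17.

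**Figure D4:**
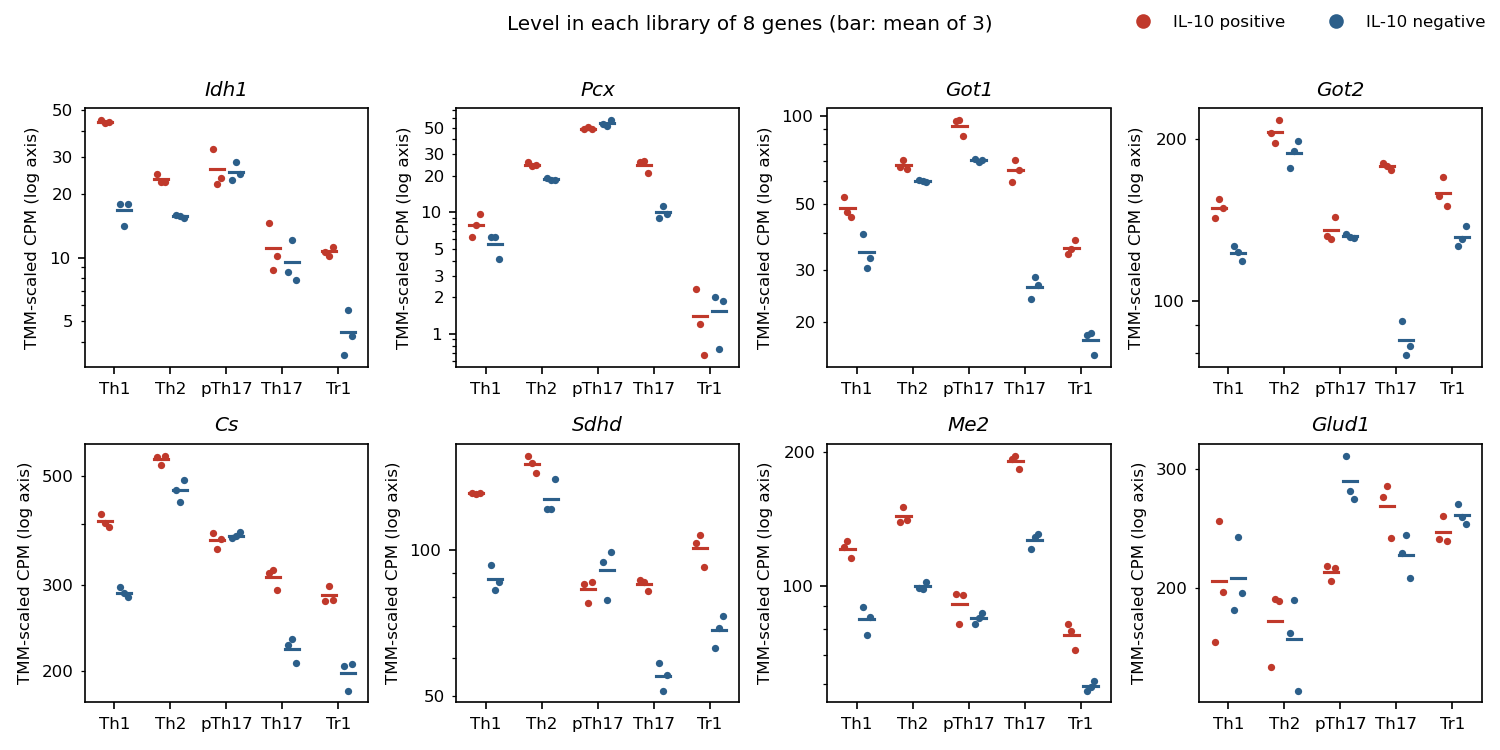
Level of 8 genes in each of the 30 libraries in TMM-scaled CPM (log axis; points, libraries; bars, mean of 3), IL-10 positive left of IL-10 negative cells in each culture. For Cs and Me2 all positive libraries lie above all negative ones in each culture but pTh17, and for Glud1 in pTh17 all positive libraries lie below the negative ones.

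The cytokine mixtures of the Th17 cultures gave a second comparison, pTh17 against Th17, within each compartment. In IL-10 negative cells most members stood higher in pTh17, while in IL-10 positive cells lower calls outnumbered higher ones. Among negative cells 19 members were higher and 4 lower in pTh17 (edgeR), where 31.1% and 28.9% of all genes were called, with a median log2 fold change of 0.37. Among positive cells 7 were higher and 12 lower, against 27.8% and 28.9% of all genes, with a median of -0.09. Libraries of pTh17 and Th17 did not overlap for 23 members among positive cells and 25 among negative cells, against 62.6% and 63% of all genes. The Th17 groups here are those of the comparison of compartments, so the counts share libraries with it. The split depends on the scaling. On log2(TPM + 1) with limma the median of all genes itself shifted to -0.30 among negative and -0.13 among positive cells. Among negative cells the members called were 11 higher and 10 lower, with 2531 and 6100 of all genes. Among positive cells they were 5 higher and 18 lower, with 2642 and 4686 of all genes. Relative to the shift of the median of all genes, the members' median was 0.28 higher among negative cells and 0.12 lower among positive cells. In the count fit it was 0.38 higher and 0.09 lower.

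Pcx, Slc25a1, Idh1 and Idh2 were higher in pTh17 than in Th17 in both compartments and under both scalings. Pcx stood at 53.6, 51.5 and 57.4 CPM in pTh17 and 9.01, 11.3 and 9.75 CPM in Th17 IL-10 negative libraries (2.43 ± 0.14; edgeR, adjusted p = 2e-17). Among positive libraries it stood at 48.3, 50.3 and 48.3 CPM in pTh17 and 26.0, 26.7 and 21.2 CPM in Th17 (0.99 ± 0.12; edgeR, adjusted p = 1e-08). Thus pTh17 libraries lay above Th17 libraries in both compartments, and the positive and negative pTh17 libraries lay close to each other. Slc25a1 stood at 134, 139.5 and 151 CPM in pTh17 and 38.7, 35.1 and 37.1 CPM in Th17 negative libraries (1.93 ± 0.09; edgeR, adjusted p = 1.7e-20). Among positive libraries it stood at 135, 138 and 132 CPM in pTh17 and 64.1, 60.4 and 55.9 CPM in Th17 (1.17 ± 0.08; edgeR, adjusted p = 6.5e-15). Idh1 stood at 23.4, 28.4 and 24.9 CPM in pTh17 and 8.52, 12.2 and 7.89 CPM in Th17 negative libraries (1.42 ± 0.17; edgeR, adjusted p = 3e-09). Among positive libraries it stood at 32.6, 22.3 and 23.9 CPM in pTh17 and 14.6, 8.78 and 10.2 CPM in Th17 (1.24 ± 0.15; edgeR, adjusted p = 9.2e-09). None of these sets overlapped.

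Idh2 stood at 81.3, 88.9 and 100.1 CPM in pTh17 and 42.1, 35.7 and 37.7 CPM in Th17 negative libraries (1.23 ± 0.09; edgeR, adjusted p = 1.5e-14), and at 71.4, 76.5 and 77.5 CPM in pTh17 and 41.5, 40.3 and 44.5 CPM in Th17 positive libraries (0.83 ± 0.09; edgeR, adjusted p = 2e-10). Got1 stood at 71.5, 69.9 and 70.9 CPM in pTh17 and 23.9, 28.4 and 26.6 CPM in Th17 negative libraries (1.43 ± 0.10; edgeR, adjusted p = 8.9e-16). Me2 moved the other way. It stood at 96.1, 82.2 and 95.3 CPM in pTh17 and 193, 197 and 183 CPM in Th17 positive libraries (-1.07 ± 0.07; edgeR, adjusted p = 1.2e-16), and was lower in pTh17 negative cells too (-0.59 ± 0.07). The groups were apart for each of these genes. Pdha1, Ogdh, Sdha and Me2 were the 4 members lower in pTh17 among negative cells, and all 4 were lower among positive cells as well. Sdhb, Glud1 and Got2 were called in both compartments with opposite signs, higher in pTh17 among negative cells (0.37 ± 0.08, 0.36 ± 0.11 and 0.64 ± 0.07) and lower among positive cells (-0.17 ± 0.07, -0.32 ± 0.11 and -0.40 ± 0.06). The lower calls of Sdhb and Glud1 ended without single positive libraries, that of Sdhb without Th17 replicate 10 or 11 or pTh17 replicate 14 or 15 (adjusted p = 0.0927 to 0.180 by edgeR) and that of Glud1 without Th17 replicate 11 (adjusted p = 0.0556 by edgeR), and their higher calls among negative cells were lost on log2(TPM + 1), where both values were below 0.

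**Figure D5:**
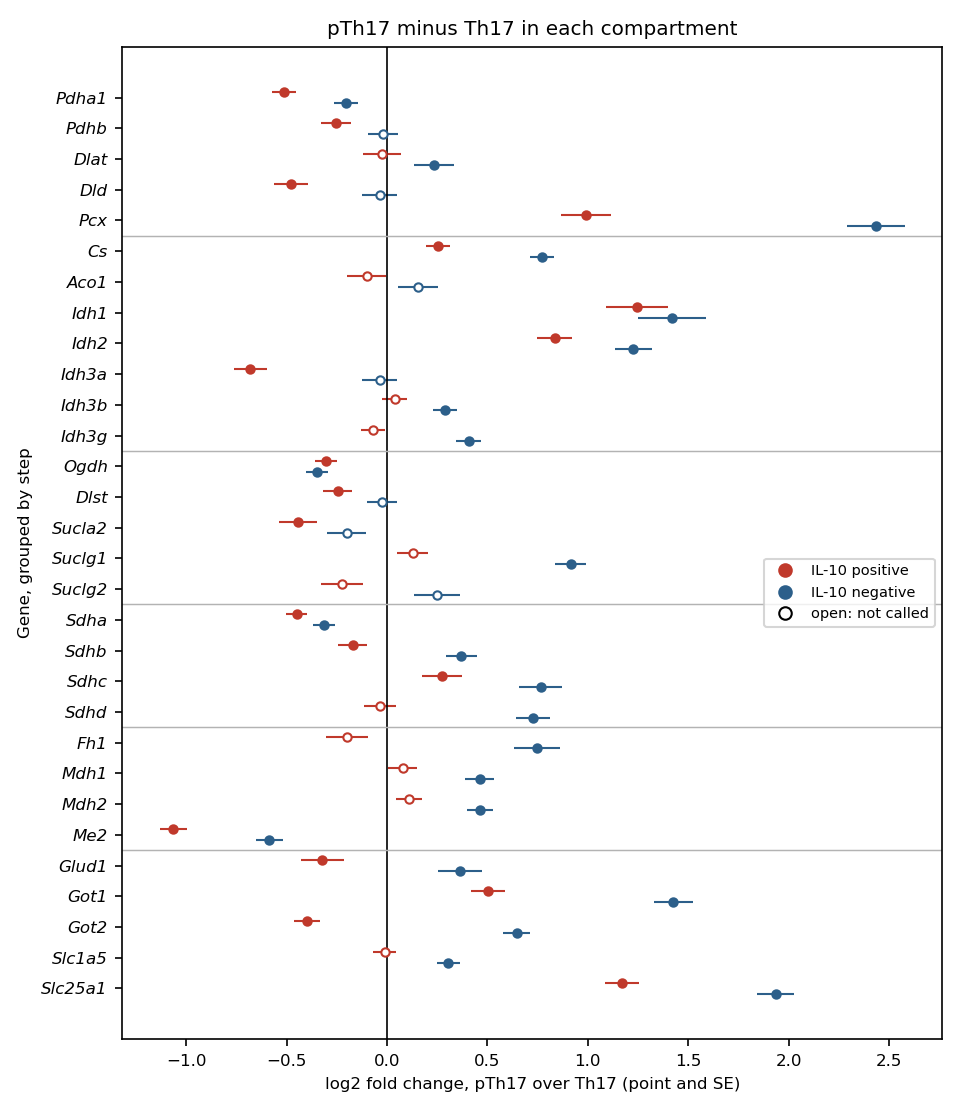
Log2 fold change of pTh17 over Th17 (points; bars, SE) for the 30 genes grouped by step, in IL-10 positive cells (upper point of each row) and IL-10 negative cells (lower point), with open points for genes not called. Pcx, Slc25a1, Idh1 and Idh2 lie right of 0 in both compartments and Me2 lies left of 0 in both.

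Other genes of the pathway came from lists that hold no member. Their counts are for the mean of 5 cultures (edgeR), where 29.6% of all tested genes were higher and 28.2% lower in IL-10 positive cells. Of 17 genes that supply pyruvate or control pyruvate dehydrogenase, 8 were higher and 4 lower. Slc16a3, a lactate exporter, rose by 1.09 ± 0.03, Pkm, pyruvate kinase, by 0.55 ± 0.02 and Gpt2, a mitochondrial alanine aminotransferase, by 0.54 ± 0.09, while Pdk2, a kinase that inhibits pyruvate dehydrogenase, fell by 0.55 on the log2 scale (SE 0.08). The other kinases of this kind differed in direction. Pdk3 averaged 98.9 and 46.5 CPM in Th17 positive and negative cells, and 55.2 and 62.3 CPM in pTh17. Pdk1 averaged 121 and 90.9 CPM in Th17, and 119 and 232 CPM in Tr1. Pdk4 averaged 19.5 and 9.69 CPM in Th2 and stayed below 1 CPM elsewhere. Gpt2 rose in Th1 (1.48 ± 0.12) and Th2 (1.34 ± 0.11) and was not called in pTh17 or Tr1. In Th17 it was lower (-0.56 ± 0.24; edgeR, adjusted p = 0.046), a call that ended by DESeq2 (adjusted p = 0.0506) and without any 1 of 5 libraries, and without Th17 IL-10 positive replicate 12 the value was -0.86. Of 12 tested genes of glutamine and amino group use, 7 were higher and 1 lower. Asns, asparagine synthetase, which takes its amino group from glutamine, averaged 9.49 ± 0.895 CPM in Th1 IL-10 positive and 0.224 ± 0.0911 CPM in IL-10 negative cells, and 31.1 ± 6.69 and 13.99 ± 1.65 CPM in pTh17 positive and negative cells (SD, n = 3). Its mean log2 fold change was 2.64 ± 0.20, or 1.65 on log2(TPM + 1) with limma, and its call in Th2 ended without Th2 IL-10 positive replicate 9 (edgeR, adjusted p = 0.0543). Psat1, which moves an amino group from glutamate in serine synthesis, rose by 1.00 ± 0.05, Slc7a5, an amino acid exchanger, by 0.56 ± 0.18, and Aldh18a1, a proline synthesis enzyme, by 0.42 ± 0.04.

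Of 8 tested mitochondrial carriers, 5 were higher and 2 lower in the same comparison, against 29.6% and 28.2% of all genes. Slc25a13, an aspartate and glutamate carrier, rose by 0.86 ± 0.08, Slc25a10, a dicarboxylate carrier, by 0.71 ± 0.09 and Slc25a5, an ADP and ATP carrier, by 0.26 ± 0.03, whereas Slc25a12, the close relative of Slc25a13, was lower (-0.26 ± 0.03). Among 6 genes of citrate use and acetyl-CoA, 3 were higher and 2 lower. Acat2 stood at 0.74 ± 0.04 and Acaca, the first enzyme of fatty acid synthesis, at 0.54 ± 0.06. Acss1 at -0.86 ± 0.04 and Acss2 at -0.35 ± 0.05 make acetyl-CoA from acetate in mitochondria and outside them. Acss2 averaged 20.1 and 53.8 CPM in Th17 positive and negative cells, 69.7 and 77.4 CPM in pTh17, and 79.5 and 97.8 CPM in Tr1. It averaged 23.5 and 23.8 CPM in Th2, and 72.8 and 66.7 CPM in Th1. The Tr1 call of Acss2 ended without single libraries. Other cycle enzymes gave 2 higher and 1 lower of 5 tested, with Nnt, which passes hydride from NADH to NADP, at 0.17 ± 0.07 (edgeR, adjusted p = 0.031, not called without any 1 of 8 libraries), and D2hgdh, which oxidises D-2-hydroxyglutarate, at -0.28 ± 0.06. Assembly and lipoylation genes gave 2 higher and 1 lower of 8, shares below those of all genes. Sdhaf1, an assembly factor of succinate dehydrogenase, stood at -0.54 ± 0.05. Lipt2, of lipoate transfer, stood at 0.97 ± 0.31, or 0.41 on log2(TPM + 1) with limma and 1.58 without Th1 IL-10 negative replicate 5. It was scarce, with group means of at most 2.28 CPM. Lipt2 averaged 0.318 and 0.107 CPM in Th1 positive and negative cells, 0.937 and 0.183 CPM in Tr1, and 2.13 and 2.28 CPM in Th2. Of 15 listed regulators, 2 were higher and 5 lower. The share called higher was below that of all genes, and the share called lower was close to it. Hif1a, a regulator of glycolytic genes, rose by 0.29 ± 0.02 in the mean, with 1.01 ± 0.05 in Th17 and a lower level in Th2 (-0.24 ± 0.05; edgeR, adjusted p = 0.00089), and Tfb2m, a mitochondrial transcription factor, was lower (-0.21 ± 0.05). Ppargc1b, a coactivator of mitochondrial genes, was lower (-0.51 ± 0.15, or -0.26 on log2(TPM + 1) with limma), but not called without Th1 IL-10 negative replicate 6 (edgeR, adjusted p = 0.0533), and Sirt5, a mitochondrial desuccinylase, was lower (-0.34 ± 0.14; edgeR, adjusted p = 0.034) but not called by DESeq2 (adjusted p = 0.0538).

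Transcripts of the cell cycle and of other cell types also differed between the compartments, by amounts that varied with the culture and the list. The 22 listed cell cycle genes summed to 6502 to 6815 CPM in Th17 IL-10 positive and 1044 to 1251 CPM in IL-10 negative libraries, to 1675 to 1768 and 538 to 598 CPM in Tr1 positive and negative libraries, and to 2546 to 2665 and 1188 to 1344 CPM in Th1 positive and negative libraries. The gap was smaller in pTh17, with 4065 to 4466 CPM in positive and 2968 to 3193 CPM in negative libraries, and in Th2, with 8661 to 8769 and 7885 to 8562 CPM. All 22 were called higher in IL-10 positive cells of Th17 and Tr1, 21 of 22 in Th1 and in pTh17, and 8 in Th2 (edgeR). Between pTh17 and Th17, 20 were higher and 1 lower in pTh17 among negative cells, and 1 was higher and 18 lower among positive cells. Of 9 tested B cell markers, 8 were higher in pTh17 IL-10 positive cells (edgeR), where the 11 listed markers summed to 231 to 311 CPM, against 112 to 124 CPM in pTh17 IL-10 negative cells, with none of them at 0 in either group. In the other 8 groups the B cell sum averaged 6.92 to 57.5 CPM, with Pax5 at 0 in 6 of them. The 6 NK cell markers summed to 82.5 to 85.8 CPM in Th1 IL-10 positive and 7.95 to 8.53 CPM in IL-10 negative libraries, and to 60.4 to 69.1 and 5.69 to 6.50 CPM in Tr1 positive and negative libraries. Klrk1 alone averaged 82.4 and 7.28 CPM in Th1 positive and negative cells and 61.9 and 5.08 CPM in Tr1 positive and negative cells, while Klre1 and Eomes stayed below 1 CPM in these 4 groups and Ncr1 was at 0 in Th1 positive cells. The 9 myeloid markers in the tables summed to 245 to 261 CPM in Th1 positive and 79.2 to 83.0 CPM in Th1 negative libraries. Cst3 (179 CPM in positive and 59.8 CPM in negative cells) and Itgam (69.1 and 19.1 CPM) made up most of these sums, while Lyz2 averaged 0.0418 and 0.0537 CPM and Lyz1 was at 0 in both. The part of these transcripts in the members' differences was not tested.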

How the data were processed

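RNA-seq of 30 libraries in 10 groups of 3 was used. The deposited tables hold, per the file headers, RSEM expected counts, TPM and FPKM per gene; FPKM were deposited but not tested, and the gene lengths deposited beside them were not used. RSEM and mm10 are named per the submitters' processing notes, while the sources used here give no version, aligner or filters. Groups follow the titles, because another label writes Thy1.1 positive for both compartments.

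Expected counts were rounded and tested with edgeR 4.0.16 in R 4.3.3 (filterByExpr, TMM, a quasi-likelihood fit of 30 libraries with a mean per group, Benjamini-Hochberg over 12611 genes, two-sided, threshold 0.05). Standard errors are the log2 fold change divided by the root of F. Alternatives were DESeq2 1.42.0, limma 3.58.1 on log2(TPM + 1), size factors by median of ratios, no filter, thinning to 4394658 counts, fits of 6 libraries, a replicate block and each library left out. The scripts were tested on simulated data. The members, gene lists and tests were chosen with earlier results of these data known. In each comparison, library values are printed for the 5 called members that changed most, with up to 4 genes from each other list by the mean comparison and the 3 highest and 3 lowest members by level; the other members follow in ranges and counts, and a few genes that are not members count in their lists but are not reported here by name. Pdk1, Pdk3 and Pdk4 are given in addition, beside Pdk2. Promoter windows come from RefSeq on GRCm38.p6, and in 23 of 33 windows of members, including those of Mdh1, Mdh2 and Got1, the bases just after the start lie in a GENCODE transcript of the gene.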

Additional observations from a re-analysis of the deposited data

Results flagged for a closer look

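The difference between IL-10 positive and IL-10 negative cells was itself unequal over the 5 cultures for 26 of 30 members (edgeR, F test of 4 contrasts, Benjamini-Hochberg adjusted p below 0.05), where 60.7% of all tested genes were called. With limma on log2(TPM + 1) 19 members and 7918 of 12611 genes were called, and Dld, Aco1, Idh3b, Sdhc, Mdh1, Glud1 and Slc1a5 were not (limma, adjusted p = 0.0593 to 0.478). The smallest adjusted p in edgeR belonged to the aminotransferases, with 1.19e-11 for Got2 and 3.42e-09 for Got1. Among genes of pyruvate entry the edgeR adjusted p was 7.38e-06 for Pdha1, 0.022 for Dld and 1.6e-06 for Pcx. From citrate to 2-oxoglutarate it was 3.18e-07 for Cs, 0.0388 for Aco1, 4.6e-06 for Idh1, 0.000104 for Idh2, 7.32e-06 for Idh3a, 0.013 for Idh3b and 0.000104 for Idh3g in edgeR. Between 2-oxoglutarate and succinate the edgeR adjusted p was 0.00148 for Ogdh, 1.52e-07 for Suclg1 and 1.05e-05 for Suclg2. For succinate dehydrogenase edgeR gave an adjusted p of 0.00416 for Sdha, 4.03e-05 for Sdhb, 0.0102 for Sdhc and 6.77e-07 for Sdhd. For fumarate and malate edgeR gave 7.87e-07 for Fh1, 0.0178 for Mdh1, 0.000586 for Mdh2 and 0.000307 for Me2. The remaining edgeR values were 0.002999 for Glud1, 6.58e-05 for Slc1a5 and 9.48e-06 for Slc25a1. Single libraries decided the calls of 4 of these members. Dld was not called without Th17 IL-10 negative replicate 11 or IL-10 positive replicate 11 or 12, and Idh3b without Th17 IL-10 negative replicate 12 (edgeR, adjusted p = 0.0725 to 0.0923 and 0.051). Mdh1 was not called without Th17 IL-10 negative replicate 12 or pTh17 IL-10 negative replicate 15 (edgeR, adjusted p = 0.0543 and 0.0639). Aco1 was not called without Th1 IL-10 positive replicate 5, Th2 IL-10 positive replicate 7, 8 or 9, Th2 IL-10 negative replicate 9, Th17 IL-10 positive replicate 10 or 12, or Th17 IL-10 negative replicate 11 or 12 (edgeR, adjusted p = 0.0527 to 0.111).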

How the results depend on the processing

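Of 330 member values per setting, DESeq2 called 6 more and lost 2, size factors by median of ratios 5 and 2, no filter 2 and 11, and thinning to 1 depth 3 and 9; fits of 6 libraries called 3 more and lost 3 of 210. On log2(TPM + 1) with limma 19 values gained a call, 22 lost it and 6 that were called in one of these fits changed sign, all in pTh17 minus Th17 among IL-10 negative cells: Dlat -0.14, Aco1 -0.22, Idh3b -0.11, Sdhb -0.025, Glud1 -0.029 and Slc1a5 -0.087. There the counts were 11 higher and 10 lower of the members and 2531 and 6100 of all genes, and the median of all genes was -0.30. That fit also gave 5 lower in Th1 with 2560 of all genes lower, and 6 lower in the mean with 3876 of all genes lower. In pTh17 it gave 2 higher and 2 lower, with 1624 and 670 of all genes. Thinning gave 1 lower in Th2 and 2 higher in pTh17, fits of 6 libraries gave 1 lower in Th2 and 0 lower in Th17, no filter gave 0 lower in Th17, and size factors by median of ratios and DESeq2 gave 2 higher in pTh17. The cause was not tested.

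With each library left out, the members called higher and lower were 15 to 17 and 2 to 3 in Th1, 6 to 10 and 0 to 0 in Th2, 22 to 25 and 0 to 1 in Th17, 1 to 2 and 3 to 4 in pTh17, and 11 to 12 and 3 to 4 in Tr1. They were 19 to 20 and 1 to 2 for the mean, 6 to 7 and 10 to 12 for pTh17 minus Th17 among positive cells and 18 to 19 and 3 to 5 among negative cells. Unequal differences were called for 23 to 27, and differences among cultures for 30 in each compartment.

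Deviations from the group mean were correlated between positive and negative libraries of a culture. Libraries that share a replicate number gave correlations of -0.0460 to 0.0546 (0 of 15 above 0.1), and those with unlike numbers -0.105 to 0.0757. With means of 3 libraries and all tested genes, such low values do not show that the libraries are unpaired. The number was not taken as a pairing in the main fit. With it as a replicate block, 2 of 210 values gained a call, Glud1 in Th17 (0.24; edgeR, adjusted p = 0.0103) and Aco1 in the mean (0.10; edgeR, adjusted p = 0.0428), and the counts higher were 25 in Th17 and 20 in the mean. Depth limits single calls: thinning ended those of Pcx and Sdhc in Th1, Dlat, Dlst and Sdhd in Th2 and Idh3b and Sucla2 in Th17 (edgeR, adjusted p = 0.0522 to 0.291).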
